A study of Mus musculus with 12 samples.

Results

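The genes described here encode the machinery that carries newly made proteins into and across the membrane of the endoplasmic reticulum (ER). They were chosen by gene symbol, as the subunits of the signal recognition particle (SRP), its receptor, the Sec61 channel, Sec62 and Sec63, the translocon-associated protein (TRAP) complex, the TRAM proteins, signal peptidase and the ER membrane complex (EMC). In all, 36 of the 24255 genes of the deposited table met this rule, and 33 of them were among the 11233 genes tested. Transcripts were measured by RNA-Seq in germinal vesicle (GV) stage oocytes, with 12 libraries in 4 groups of 3 and 20 oocytes per library. All females were C57BL/6 mice (C57BL/6J in the methods) of 3 weeks. They were primed with 5 IU of PMSG, a hormone preparation that promotes follicle growth, and oocytes were taken after 46 h.

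The WT group was wild type. The MUT group carried D166G, an ENU-induced missense mutation of Dpagt1 present in the whole body. Dpagt1 encodes the enzyme that starts the assembly of the N-glycan precursor on its lipid carrier in the ER membrane. GcKO females were Dpagt1F/F Gdf9CRE/+, in which the Gdf9 promoter drives the Cre recombinase in oocytes. AmcKO females were Dpagt1F/F Amhr2CRE/+, in which Cre is driven in granulosa cells and the oocyte itself is not targeted, and they share the floxed allele with GcKO. The labels do not say whether the 3 libraries of a group came from separate females, so the p-values measure the spread between these samples, which may be technical. The labels number the WT and AmcKO libraries 4 to 6 and the MUT and GcKO libraries 1 to 3, so in MUT or GcKO against WT, and in GcKO against AmcKO, the genotype and any batch tied to the numbering cannot be told apart.

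Proteins bound for secretion, for the plasma membrane or for the zona pellucida, the glycoprotein coat of the oocyte, carry a hydrophobic signal at their start. SRP binds this signal as it leaves the ribosome and docks at its receptor on the ER, where the chain passes into the Sec61 channel. At the channel, TRAP and TRAM assist some chains, signal peptidase cuts off the signal, and oligosaccharyltransferase adds the N-glycan that DPAGT1 began to build. The EMC inserts membrane segments of other proteins beside this route.

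Levels are given in FPKM as deposited, the fragments mapped to a gene scaled to the length of the transcript and to a size of the library. Median-of-ratios scaling brings the median ratio of the transcripts detected in every library to the same value. Its factors lay between 0.9916 and 1.01, so the deposited values were already near that scale. A difference is the log2 fold change of FPKM + 1 with its standard error (SE), which understates the change of low transcripts, and a transcript was called at an adjusted p under 0.05 in limma, fitted to all 12 libraries. Library sums of FPKM ran from 1167360 to 1226000 in WT, while MUT had 589617 to 611597, GcKO 482314 to 684212 and AmcKO 883256 to 1107920. Fragment numbers are not known, since the table gives no counts. The FPKM worth of a single fragment, relative to MUT replicate 2, was therefore estimated. The estimate was the most frequent ratio among the transcripts with the lowest FPKM times length. The lengths were those of GENCODE, which may differ from those the authors used. This estimate lay between 2.27 and 2.65 in WT, between 1 and 1.21 in MUT, between 0.901 and 1.5 in GcKO and between 1.21 and 1.49 in AmcKO. By it, low transcripts were less precise in WT. Dpagt1 itself was listed at 0 in all WT and AmcKO libraries, at 0.878, 0.408 and 0.985 FPKM in MUT and at 0, 0.366 and 0 FPKM in GcKO, which checks no label.

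The transcripts of the oocyte markers were detected in all groups, and Zp3, a zona pellucida protein, ranged over 599 to 674 FPKM (WT), 375 to 497 (MUT), 493 to 596 (GcKO) and 639 to 952 (AmcKO). Summed over 12 oocyte markers, the level was 36599 to 41057 FPKM (WT), 15100 to 15659 (MUT), 13824 to 20001 (GcKO) and 28812 to 38048 (AmcKO). Dppa3 made up most of this sum, with means of 27932 FPKM in WT, 8421 in MUT and 9872 in GcKO, and the other 11 summed to 10243 to 10914.4 FPKM (WT), 6362 to 7723 (MUT), 5769 to 8041 (GcKO) and 8251 to 8789 (AmcKO). As deposited, 5 of the 12 were called lower in MUT and 4 in GcKO and none higher, beside 11.3% and 11.4% of all tested transcripts called lower, and 7 were called in neither. Of these 7, Figla, Gdf9, Nlrp5 and Zp1 had negative log2 fold changes in both (-0.38, -0.65, -0.70 and -0.44 in MUT and -0.56, -0.50, -0.46 and -0.13 in GcKO), while Nobox was positive in both (0.28 and 0.44) and Bmp15 and Kit were negative in MUT (-0.11 and -0.09) and positive in GcKO (0.03 and 0.58). When the libraries had the same FPKM sum, Dppa3 alone was called lower in both, and 4 were called higher in MUT and 6 in GcKO. Of all 11233 tested transcripts, 251 were then called lower and 4643 higher in MUT, and 240 and 4767 in GcKO. After quantile normalization, Zp2 alone was called lower in MUT and 0 of the 12 in GcKO, and 2 were called higher in MUT and 4 in GcKO. The counts over all tested transcripts were then 712 lower and 772 higher in MUT, and 661 and 703 in GcKO. The summed level of 12 granulosa cell markers was 17.6 to 23.1 FPKM (WT), 17.0 to 31.4 (MUT), 14.7 to 29.3 (GcKO) and 11.8 to 22.7 (AmcKO). Cyp19a1 made up most of it in WT, with means of 17.4 FPKM in WT, 10.6 in MUT, 12.7 in GcKO and 13.4 in AmcKO, and was not called (-0.68 in MUT and -0.55 in GcKO). The other 11 summed to 2.53 to 3.93 FPKM (WT), 7.51 to 18.04 (MUT), 7.03 to 8.40 (GcKO) and 1.82 to 3.45 (AmcKO), so that every MUT and GcKO library lay above every WT and AmcKO library. The defining markers Amh, Amhr2 and Foxl2 were listed at 0 in every library. Gja1, Hsd17b1 and Inha, 3 of the 7 tested, were called higher in MUT, beside 9.46% of all tested transcripts called higher. They were at 0 in all WT libraries and at most 5.44 FPKM in MUT. Hsd17b1 reached the minimum of 1 FPKM for testing in MUT alone (at most 0.957 FPKM in GcKO). The count of 3 of 7 therefore rests partly on the filter, and nothing is drawn from it. As deposited none of the 7 was called in GcKO. With the same FPKM sum, Gja1, Hsd17b1 and Inha were again called higher in MUT, and Fshr, Gja1, Kitl and Nr5a2 in GcKO. The part of RNA from granulosa cells in the differences of the translocation genes was not tested. In pooled oocytes, fewer cells of a type and less RNA per cell cannot be told apart.

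The translocation genes spanned a wide range of levels in WT oocytes. Srp14, Sec11a, Spcs1, Sec61b and Emc6 stood highest, with means of 1164, 711, 622, 464 and 309 FPKM, and each ranked above at least 95.7% of the transcripts tested. Subunits of the same complex were far apart. Sec61a1, the pore-forming subunit of the channel, was listed at 0, 2.55 and 2.73 FPKM in WT against a mean of 464 for its small partner Sec61b. Srp68 and Srp72, which bind the SRP RNA, had WT means of 1.16 and 3.13 FPKM against 1164 for Srp14. Among the 33 transcripts tested, the WT level fell with transcript length, with a Spearman rho of -0.516, and rho was -0.159 over the 10741 tested transcripts with a length. These points share libraries and the length used in the FPKM, and they are given as a description.

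Of the 33 transcripts, MUT had 8 called lower and 3 called higher against WT (33.3% called), beside 20.8% of all tested transcripts called, 11.3% lower and 9.46% higher. In GcKO, 9 were called lower and 2 higher (33.3% called), beside 20.2% of all tested transcripts, 11.4% lower and 8.71% higher. The median log2 fold change was -0.18 in MUT and -0.39 in GcKO, while the median over all tested transcripts was 0.12 in both. No transcript of the set was called in AmcKO against WT by limma, where 0.214% of all tested transcripts were called and 4 of the 33 (12.1%) had an unadjusted p under 0.05, beside 15.6% of all tested. MUT, GcKO and AmcKO are set against the same 3 WT libraries, so their values are given side by side and not counted as independent.

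The scale of the libraries bears on these directions. Bringing libraries to the same FPKM sum multiplies each by 1 factor, so the levels of all transcripts of a library shift together. When every library was brought to the same FPKM sum, the median over all tested transcripts moved to 0.71 in MUT and 0.74 in GcKO. On that scale, 1 transcript of the set was called lower and 18 higher in MUT, and 2 lower and 15 higher in GcKO. Among all 11233 tested transcripts, 251 were called lower and 4643 higher in MUT, and 240 lower and 4767 higher in GcKO. Read against those shifted medians, the median of the set lay at -0.06 in MUT and -0.10 in GcKO, and at -0.30 and -0.51 with the values as deposited. After quantile normalization, 5 of the set were called lower and 5 higher in MUT, and 4 lower and 2 higher in GcKO. Over all tested transcripts, 712 were then called lower and 772 higher in MUT, and 661 lower and 703 higher in GcKO. Which scale follows the RNA content of an oocyte was not tested. As a share of the FPKM sum of its library, the set made up 0.347 to 0.358% (WT), 0.474 to 0.501% (MUT), 0.426 to 0.463% (GcKO) and 0.371 to 0.372% (AmcKO). Its share was higher in every MUT and GcKO library than in any WT library, while its summed FPKM was lower, with WT at 4182 to 4358, MUT at 2899 to 3027, GcKO at 2231 to 2993 and AmcKO at 3282 to 4110.

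**Figure D1:**
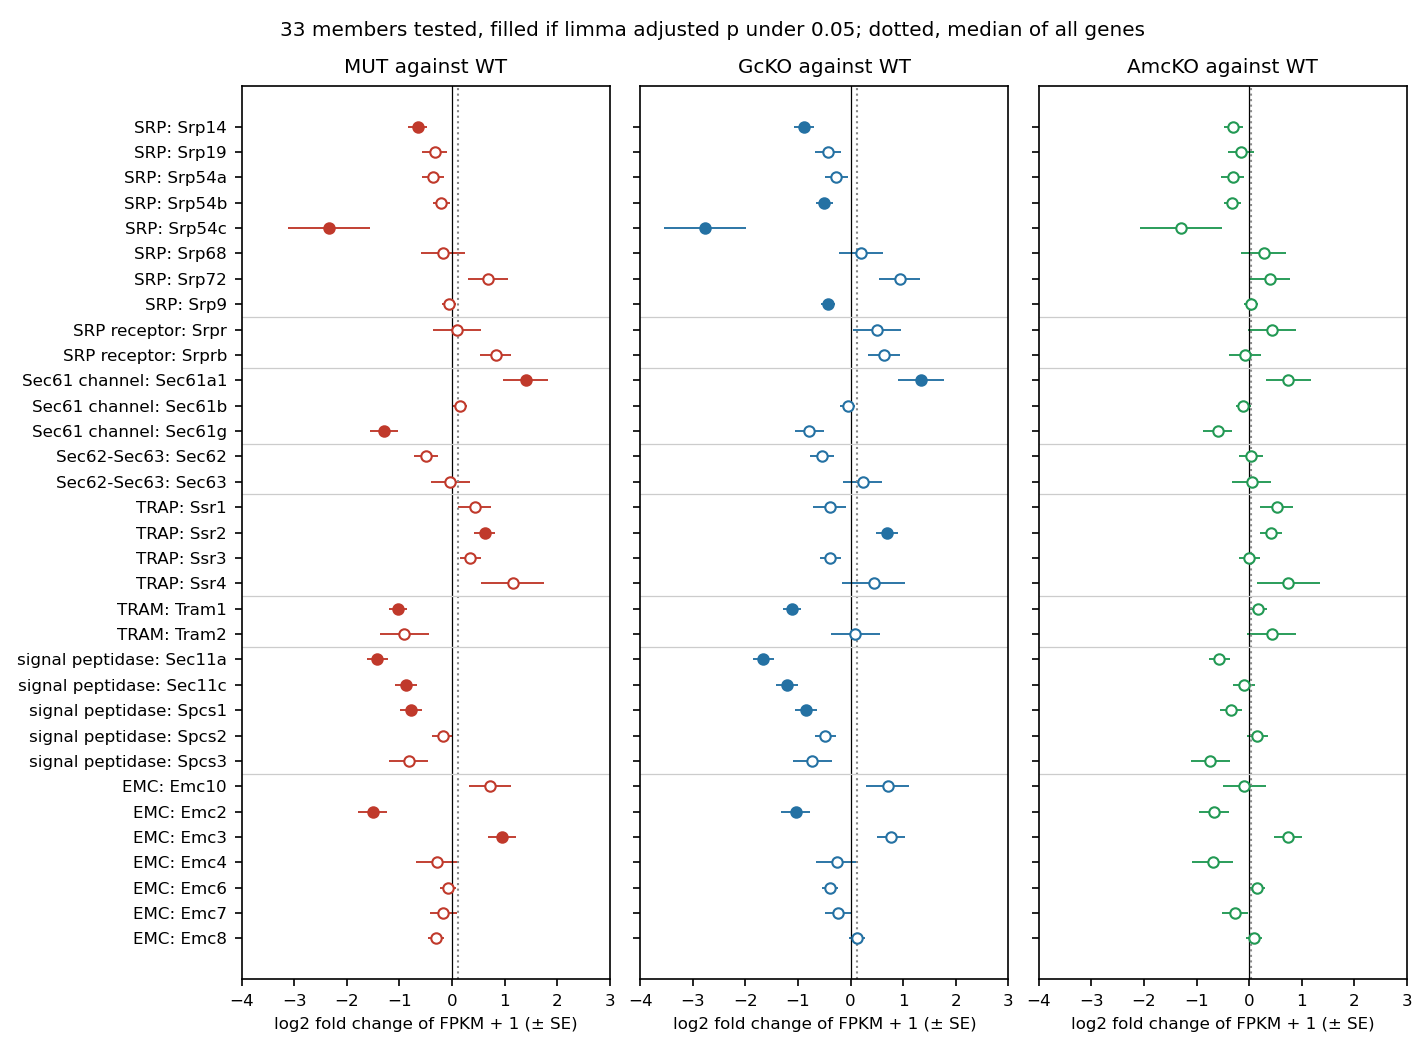
Log2 fold change of FPKM + 1 (x axis) of the 33 transcripts tested (y axis, grouped by role) in MUT, GcKO and AmcKO against WT, with bars of 1 SE from the limma fit and filled points for an adjusted p under 0.05. As deposited, 8 points are filled below 0 and 3 above in MUT, 9 and 2 in GcKO and none in AmcKO. With the libraries scaled to the same FPKM sum, the counts turned to 1 and 18 in MUT and 2 and 15 in GcKO. Of all 11233 tested transcripts, 251 were then called lower and 4643 higher in MUT, and 240 and 4767 in GcKO.

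Signal peptidase removes the signal from the chain as it enters the ER, and Sec11a and Sec11c encode its alternative catalytic subunits. All 5 of its transcripts had negative log2 fold changes in MUT and in GcKO as deposited, beside 44.1% and 44.2% of all tested transcripts. Of the 5, Sec11a, Sec11c and Spcs1 were called lower in both, beside 11.3% and 11.4% of all, whereas with the same FPKM sum only Sec11a stayed called lower, Spcs2 was called higher in both, and Spcs1 turned positive in both and Sec11c in MUT.

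Sec11a, on chromosome 7 from 80904889 to 80947780 of GRCm38, was at 668, 711 and 755 FPKM in WT, at 279, 291 and 229.9 in MUT, at 175, 218 and 295 in GcKO and at 406, 603 and 449 in AmcKO. Every MUT and GcKO library lay below every AmcKO library, and every AmcKO library lay below every WT library. The log2 fold change was -1.42 ± 0.20 (SE) in MUT (limma adjusted p = 3.13e-04) and -1.66 ± 0.20 in GcKO (limma adjusted p = 1.50e-04), and -0.57 ± 0.20 in AmcKO, which was not called (limma adjusted p = 0.203). The calls in MUT and GcKO held in all 6 fits that each left out 1 library. They also held under each scaling, at -0.42 in MUT and -0.62 in GcKO with the same FPKM sum and at -0.56 and -0.76 after quantile normalization. Some exons of Sec11a overlap those of Gm16171 on the opposite strand and Nmb on the same strand, and whether the counting used strand is not given in the sources used here.

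Sec11c was at 80.5, 136 and 104 FPKM in WT, at 57.5, 46.6 and 67.0 in MUT, at 42.0, 45.9 and 46.4 in GcKO and at 105, 112 and 79.5 in AmcKO. The MUT and GcKO libraries did not overlap with WT, and the AmcKO libraries did. Its log2 fold change was -0.88 ± 0.21 in MUT (limma adjusted p = 0.00932), lost without MUT replicate 2 (limma adjusted p = 0.0535), and -1.21 ± 0.21 in GcKO (limma adjusted p = 0.00131), called in all 6 fits that left out 1 library. With the same FPKM sum, the values were 0.11 in MUT and -0.18 in GcKO, neither called, and relative to the shifted median of all tested transcripts they were -0.61 and -0.93. Sec11c lies on chromosome 18 from 65800515 to 65817684.

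Spcs1, a small subunit without catalytic activity, lies on chromosome 14 from 30999826 to 31001672. Its level was 567, 653 and 647 FPKM in WT, 349.9, 372 and 369 in MUT, 271, 331 and 454 in GcKO and 528, 612 and 356 in AmcKO. WT stood above all MUT and GcKO libraries, and AmcKO replicate 6 lay among the MUT libraries. The log2 fold change as deposited was -0.77 ± 0.21 in MUT (limma adjusted p = 0.0188) and -0.85 ± 0.21 in GcKO (limma adjusted p = 0.0111), but the sign turned with the same FPKM sum (0.22 and 0.19) and after quantile normalization (0.10 and 0.08). Relative to the shifted median of all tested transcripts, the values with the same FPKM sum were -0.49 and -0.56. In MUT, the call held in 1 of the 6 fits without 1 library, that without WT replicate 4, and the adjusted p reached 0.0702. In GcKO it was lost without GcKO replicate 1 (limma adjusted p = 0.0597). Spcs2 and Spcs3 were not called, with WT means of 89.7 and 1.57 FPKM and log2 fold changes of -0.18 and -0.83 in MUT and -0.48 and -0.73 in GcKO.

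GcKO and AmcKO share the floxed allele and no WT library enters their contrast, but they too differ in the numbering of the libraries. There, Sec11a (-1.09 ± 0.20, limma adjusted p = 0.00612) and Sec11c (-1.11 ± 0.21, limma adjusted p = 0.00762) were called lower in GcKO, together with Tram1, and these were 3 of the 33 transcripts, beside 5.46% of all tested transcripts called, 4.79% lower and 0.668% higher. Sec11c was not called without AmcKO replicate 4 (limma adjusted p = 0.0521). Under the same FPKM sum, 1 of the set was called lower and 9 higher, against a median over all tested transcripts of 0.55. Of all 11233 tested transcripts, 128 were then called lower and 2463 higher. On that scale, Sec11a (-0.35, limma adjusted p = 0.0617) and Sec11c (-0.38, limma adjusted p = 0.192) were not called. Their values relative to that median were -0.90 and -0.93. After quantile normalization, 2 of the set were called lower and 1 higher, beside 160 lower and 89 higher of all tested transcripts. There Sec11c stayed called lower (-0.84) and Sec11a did not (-0.50).

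**Figure D2:**
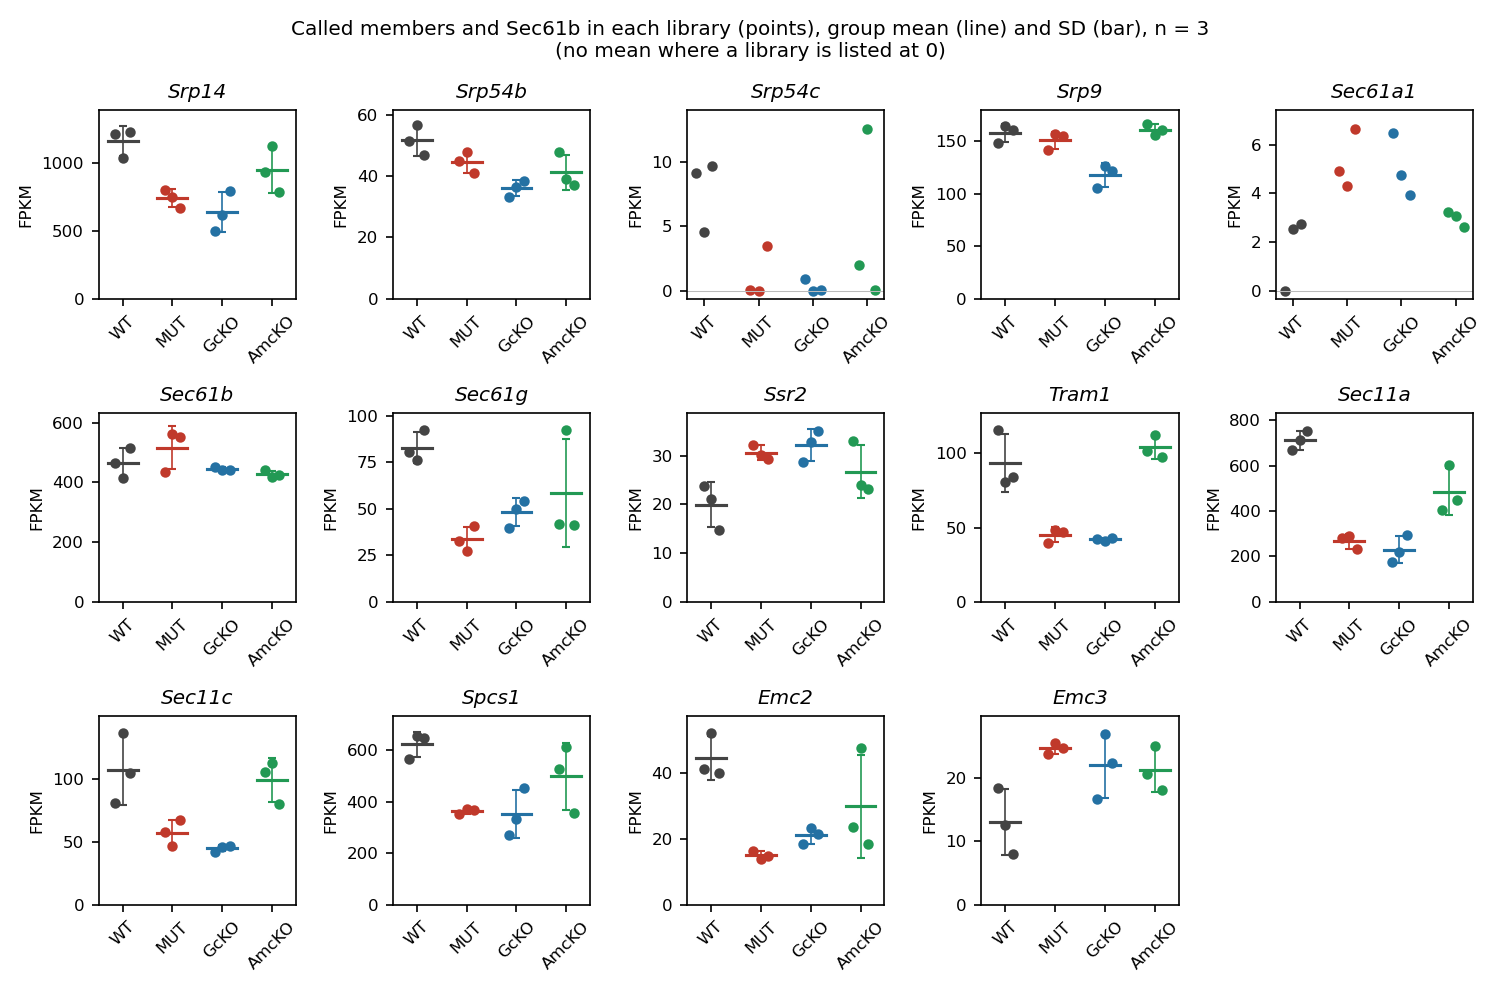
FPKM (y axis, linear) of the 13 transcripts called in MUT or GcKO against WT, and of Sec61b, in each library (points) of the groups on the x axis, with the group mean as a line and the SD as a bar (n = 3), left out for the transcripts with a library listed at 0. As deposited, the Sec11a libraries run from 668 to 755 FPKM in WT, from 229.9 to 291 in MUT, from 175 to 295 in GcKO and from 406 to 603 in AmcKO, while under the same FPKM sum the sign turned in both groups for Srp14, Srp54b, Srp9 and Spcs1, in MUT for Sec11c and in GcKO for Sec61g and Sec61b.

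TRAM proteins lie beside the channel and help some signals to enter it. Tram1, on chromosome 1 from 13564698 to 13589910, was at 116, 80.5 and 83.8 FPKM in WT, at 39.5, 48.7 and 47.2 in MUT, at 42.4, 41.0 and 42.9 in GcKO and at 102, 113 and 97.9 in AmcKO. The MUT and GcKO libraries formed a narrow band below all WT and AmcKO libraries, which overlapped each other. Its log2 fold change was -1.02 ± 0.17 in MUT (limma adjusted p = 9.84e-04), -1.11 ± 0.17 in GcKO (limma adjusted p = 5.41e-04) and 0.17 ± 0.17 in AmcKO, and -1.28 ± 0.17 between GcKO and AmcKO (limma adjusted p = 0.00124). All 3 calls held in each fit without 1 library. Those in MUT (-0.67) and GcKO (-0.71) held after quantile normalization, while with the same FPKM sum the values were -0.04 and -0.09 and were not called. Between GcKO and AmcKO, Tram1 stayed called lower with the same FPKM sum (-0.55, limma adjusted p = 0.0411). Read against the shifted medians of all tested transcripts, these values were -0.75 in MUT, -0.83 in GcKO and -1.10 between GcKO and AmcKO.

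Tram2, a close relative, was near the lower end of detection. It was listed at 1.39, 1.57 and 4.02 FPKM in WT, 1.92, 0.597 and 0 in MUT, 2.28, 1.07 and 4.45 in GcKO and 4.45, 2.53 and 2.89 in AmcKO. The groups overlapped, and between GcKO and MUT it had the largest positive difference of the set (1.00 ± 0.46), which was not called (limma adjusted p = 0.752).

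SRP is a particle of proteins on an RNA. Srp9 and Srp14 form the heterodimer that slows the ribosome, Srp54 binds the signal, and Srp19, Srp68 and Srp72 shape the particle. Of 8 SRP transcripts, 2 were called lower in MUT and 4 in GcKO, and none higher, as deposited. Of all tested transcripts, 11.3% were called lower in MUT and 11.4% in GcKO. With the same FPKM sum, only Srp54c kept a negative sign in either group. The SRP counts were then 0 lower and 5 higher in MUT and 1 lower and 5 higher in GcKO. Among all 11233 tested transcripts they were 251 lower and 4643 higher in MUT and 240 lower and 4767 higher in GcKO.

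Srp14, on chromosome 2 from 118475850 to 118479711, was at 1220.5, 1038 and 1235 FPKM in WT, at 799.6, 754 and 669 in MUT, at 502, 616 and 798 in GcKO and at 939, 1129.6 and 792 in AmcKO. WT stood above every MUT and GcKO library, and AmcKO overlapped with all of them. The log2 fold change was -0.65 ± 0.18 in MUT (limma adjusted p = 0.0224) and -0.89 ± 0.18 in GcKO (limma adjusted p = 0.00397), and its sign turned with the same FPKM sum (0.35 and 0.15) and after quantile normalization (0.25 and 0.02). With the same FPKM sum it was called higher in MUT (limma adjusted p = 0.0122), at -0.37 relative to the shifted median of all tested transcripts. In MUT, the call was lost in 4 of the 6 fits without 1 library, those without WT replicate 4 or 6 or MUT replicate 2 or 3 (limma adjusted p up to 0.0995), and in GcKO in none.

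Srp9, the partner of Srp14, was at 148, 164 and 161 FPKM in WT, at 141, 157 and 155 in MUT, at 105, 127 and 121 in GcKO and at 166, 156 and 160.5 in AmcKO. MUT overlapped with WT, and GcKO lay below both. Its log2 fold change was -0.06 ± 0.13 in MUT, which was not called, and -0.42 ± 0.13 in GcKO (limma adjusted p = 0.0376), where the sign turned with the same FPKM sum (0.61, or -0.13 relative to the shifted median) and after quantile normalization (0.18). The call in GcKO was lost on leaving out WT replicate 5 or 6 or the GcKO library numbered 1 (limma adjusted p up to 0.0769). Of the Srp9 transcript, 12.1% of the stretches of 100 nt also occur in Gm13736.

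The mouse genome holds 3 adjacent copies of Srp54 on chromosome 12, Srp54a from 55080262 to 55115367, Srp54b from 55155104 to 55189573 and Srp54c from 55230168 to 55263836. Their coding sequences are 1512 nt long. Those of Srp54a and Srp54b are identical, and that of Srp54c differs from both at 6 positions, an identity of 99.6%. The 90 nt of coding sequence from position 876 to 965, counted from the start codon in GENCODE transcripts of GRCm38, hold 3 of these positions, shown in capitals, and are printed because they show how little separates the copies.

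Srp54a: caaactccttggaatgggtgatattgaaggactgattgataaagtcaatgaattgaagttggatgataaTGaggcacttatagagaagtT
Srp54b: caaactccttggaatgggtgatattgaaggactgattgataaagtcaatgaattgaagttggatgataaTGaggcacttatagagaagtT
Srp54c: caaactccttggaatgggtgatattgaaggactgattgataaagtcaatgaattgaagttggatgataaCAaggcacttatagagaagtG

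Of all stretches of 100 nt, 72.1% in Srp54a, 98.4% in Srp54b and 89.5% in Srp54c also occur in another gene, so how fragments were divided among the copies is uncertain. Srp54c was listed at 9.14, 4.55 and 9.70 FPKM in WT, at 0.0347, 0 and 3.45 in MUT, at 0.894, 0 and 0.0109 in GcKO and at 2.002, 12.6 and 0.0154 in AmcKO. Its log2 fold change, the most negative of the set in MUT, GcKO and AmcKO, was -2.34 ± 0.78 in MUT (limma adjusted p = 0.0467), -2.77 ± 0.78 in GcKO (limma adjusted p = 0.0223) and -1.29 in AmcKO, not called. Between GcKO and AmcKO it was also the most negative of the set (-1.48 ± 0.78) and was not called (limma adjusted p = 0.333). The call was lost in 5 of the 6 fits without 1 library in both MUT and GcKO, and held only without MUT replicate 3 in MUT and without WT replicate 5 in GcKO (limma adjusted p up to 0.188 and 0.0945). Srp54b, at 51.4, 56.8 and 46.8 FPKM in WT and 33.4, 36.6 and 38.4 in GcKO, was called lower in GcKO (-0.50 ± 0.16, limma adjusted p = 0.0432), but was called higher with the same FPKM sum (0.51, or -0.23 relative to the shifted median), and without WT replicate 4 or 5 or GcKO replicate 1 or 2 it was not called (limma adjusted p up to 0.102).

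Summed over the 3 copies, which lessens the effect of the division but does not remove it, since FPKM is scaled to the length of each (4498, 3646 and 3642 nt in GENCODE), Srp54 was at 89.0, 85.3 and 87.6 FPKM in WT, at 63.1, 68.5 and 70.3 in MUT, at 56.2, 57.6 and 63.9 in GcKO and at 79.6, 71.4 and 55.3 in AmcKO. As deposited, every library of MUT, GcKO and AmcKO lay below WT, while with the same FPKM sum every MUT and GcKO library lay above WT (means of 94.4 and 85.8 against 61.3) and AmcKO overlapped with it. The exact 2-sided permutation p was 0.1 for each group as deposited, the smallest that 3 against 3 libraries can give.

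The SRP receptor holds SRP at the ER, with Srprb anchoring the subunit encoded by Srpr in the membrane. Srprb was at 9.76, 12.99 and 8.92 FPKM in WT, at 20.1, 18.8 and 18.9 in MUT, at 17.9, 17.8 and 14.7 in GcKO and at 11.7, 5.19 and 15.1 in AmcKO. Its MUT and GcKO libraries lay above WT, but as deposited it was not called (0.83 ± 0.30 in MUT, limma adjusted p = 0.0645, and 0.63 ± 0.30 in GcKO, limma adjusted p = 0.151). It was called higher in both with the same FPKM sum (1.75 and 1.60) and in neither after quantile normalization (0.78 and 0.59). Of its transcript, 26.6% of the stretches of 100 nt also occur in the overlapping Gm20425. Srpr had a WT mean of 1.46 FPKM and was not called.

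The Sec61 channel is built from an alpha, a beta and a gamma subunit. In MUT, the transcript of an alpha subunit was called higher, that of the gamma subunit lower and that of the beta subunit was not called. The alpha subunit, which forms the pore, is encoded by Sec61a1 or Sec61a2. Sec61a1, on chromosome 6 from 88503579 to 88518905, was listed at 0, 2.55 and 2.73 FPKM in WT, at 4.93, 4.31 and 6.67 in MUT, at 6.47, 4.75 and 3.96 in GcKO and at 3.23, 3.05 and 2.62 in AmcKO. All MUT and GcKO libraries lay above all WT and AmcKO libraries. In AmcKO against WT, Sec61a1 had the highest log2 fold change of the set (0.74 ± 0.43), which was not called (limma adjusted p = 0.423). It was called higher in MUT (1.40 ± 0.43, limma adjusted p = 0.0340) and in GcKO (1.34 ± 0.43, limma adjusted p = 0.0421), and the call was lost in 4 of 6 fits in each, those without WT replicate 4, the library listed at 0, or without any 1 of the MUT or GcKO libraries (limma adjusted p up to 0.137 and 0.164). After quantile normalization, the values were 1.22 and 1.17 and were not called. Of its transcript, 11.6% of the stretches of 100 nt also occur in the antisense Gm44170. Sec61a2 was listed at 0 in 10 libraries, at 0.383 FPKM in MUT replicate 3 and at 0.949 FPKM in GcKO replicate 3, below the minimum for testing.

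Sec61b, the beta subunit, was at 465, 413 and 515 FPKM in WT, at 436, 563 and 553 in MUT, at 451, 442 and 443 in GcKO and at 441, 419.8 and 427 in AmcKO. All groups overlapped with WT. As deposited it was not called, with log2 fold changes of 0.15 ± 0.14 in MUT (95% interval -0.17 to 0.47), -0.06 ± 0.14 in GcKO and -0.11 ± 0.14 in AmcKO, but it was called higher in MUT and GcKO with the same FPKM sum (1.15 and 0.98) and after quantile normalization (1.01 and 0.86).

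Sec61g, the gamma subunit, on chromosome 11 from 16500530 to 16508484, was at 80.3, 76.1 and 92.4 FPKM in WT, at 32.8, 27.0 and 40.7 in MUT, at 39.6, 50.1 and 54.4 in GcKO and at 41.9, 92.2 and 41.3 in AmcKO. MUT and GcKO lay below WT, and of AmcKO only replicate 5 reached the WT range. The log2 fold change was -1.30 ± 0.27 in MUT (limma adjusted p = 0.00447), called in all 6 fits without 1 library, and -0.78 ± 0.27 in GcKO, which was not called (limma adjusted p = 0.0580). Under the same FPKM sum, neither was called, and the sign stayed negative in MUT (-0.32) and turned in GcKO (0.24, or -0.50 relative to the shifted median). Of its transcript, 18.2% of the stretches of 100 nt also occur in Gm10177, and of that of Sec61b, 9.68% also occur in Gm10320.

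A ratio of 2 transcripts within a library stays the same when all its values are multiplied by 1 factor, as for the same FPKM sum, but not under quantile normalization. The ratio of Sec61b to Sec61g was 5.80, 5.43 and 5.57 in WT, 13.3, 20.8 and 13.6 in MUT, 11.4, 8.82 and 8.13 in GcKO and 10.5, 4.55 and 10.3 in AmcKO. It was higher in each MUT and GcKO library than in any WT library, and AmcKO replicate 5 lay below WT. The ratio of Emc6 to Emc2 was 8.28, 6.14 and 6.61 in WT, 16.4, 21.9 and 20.6 in MUT, 10.5, 11.3 and 11.6 in GcKO and 15, 6.87 and 18.8 in AmcKO, again without overlap between WT and MUT or GcKO. Of 6 such ratios, each compared with WT in 3 groups, those of Ssr3 to Ssr2 also did not overlap in MUT and GcKO and that of Srp14 to Srp9 in MUT, while Sec11a to Sec11c and Spcs1 to Spcs2 overlapped in every group. Each ratio without overlap had an exact 2-sided permutation p of 0.1, the smallest 3 against 3 libraries can give, and the pairs were chosen after their values were seen.

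**Figure D3:**
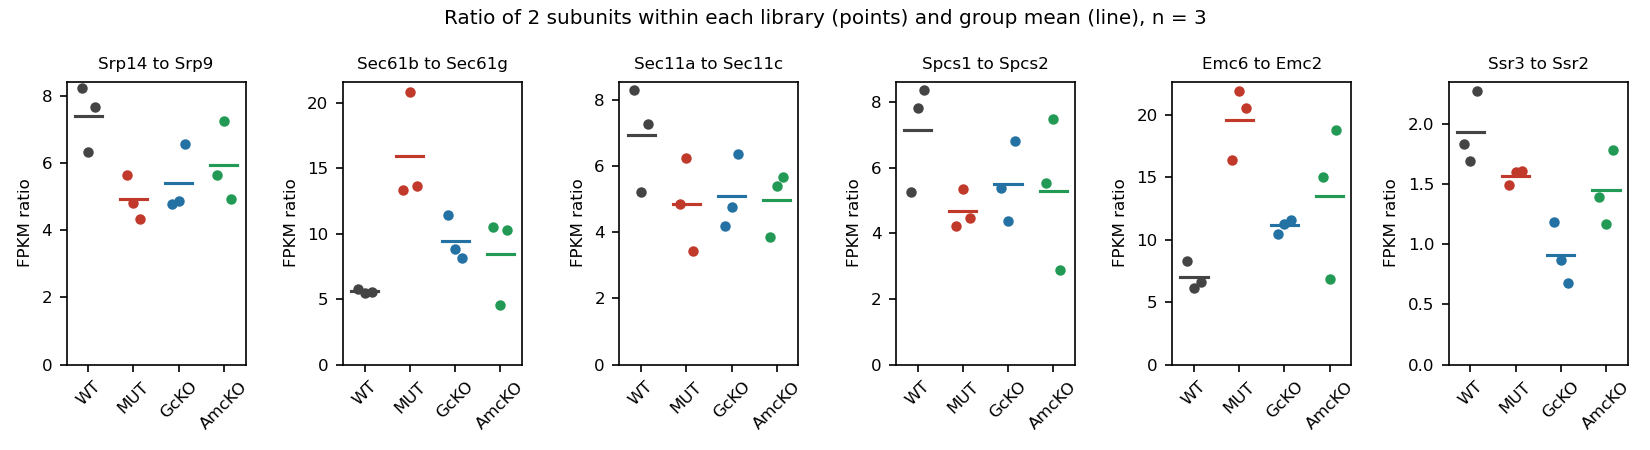
FPKM ratio (y axis, linear) of 2 subunits within each library (points) of the groups on the x axis, with the group mean as a line (n = 3). The ratio of Sec61b to Sec61g runs from 5.43 to 5.80 in WT, from 13.3 to 20.8 in MUT and from 8.13 to 11.4 in GcKO, and the AmcKO libraries spread from 4.55 to 10.5.

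Sec62 and Sec63 help chains that reach the channel after their synthesis. Sec62 was at 19.03, 28.7 and 31.2 FPKM in WT, 14.2, 17.6 and 23.0 in MUT, 18.2, 15.7 and 18.3 in GcKO and 23.2, 27.4 and 28.7 in AmcKO, and Sec63 had a WT mean of 1.19 FPKM. Neither was called in any contrast.

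TRAP sits at the channel mouth and aids weak signals and glycosylation. Of its 4 transcripts, Ssr2 was called higher in MUT and GcKO and none lower, as deposited. Among all tested transcripts, 9.46% were called higher in MUT and 8.71% in GcKO. On the scale of the same FPKM sum, all 4 were called higher in MUT (Ssr1 1.31, Ssr2 1.57, Ssr3 1.32 and Ssr4 1.83). In GcKO, Ssr2 alone was called higher. On that scale, 4643 of all 11233 tested transcripts were called higher in MUT and 4767 in GcKO. Ssr2, on chromosome 3 from 88575876 to 88588419, was at 23.9, 21.2 and 14.8 FPKM in WT, at 32.3, 30.3 and 29.3 in MUT, at 28.7, 32.96 and 35.2 in GcKO and at 32.98, 24.0 and 23.3 in AmcKO. MUT and GcKO lay above WT, and AmcKO overlapped with WT. Its log2 fold change was 0.62 ± 0.21 in MUT (limma adjusted p = 0.0484) and 0.69 ± 0.21 in GcKO (limma adjusted p = 0.0306), and it stayed positive and called with the same FPKM sum (1.57 and 1.68) and after quantile normalization (0.72 and 0.83), though not in MUT under median-of-ratios scaling (limma adjusted p = 0.0502). In MUT the call was lost in 5 of 6 fits, all but that without WT replicate 4 (limma adjusted p up to 0.139), and in GcKO on leaving out the WT library 6 or the GcKO library 2 or 3 (limma adjusted p at most 0.0921).

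Ssr1 and Ssr3 had the most negative log2 fold changes of the set between GcKO and MUT, a contrast in which no transcript of the set was called by limma, beside 0.205% of all tested transcripts, 0.134% lower and 0.0712% higher, and in which 5 of the 33 (15.2%) had an unadjusted p under 0.05, beside 6.6% of all tested. Ssr1 was at 8.68, 9.81 and 8.97 FPKM in MUT and 4.26, 5.37 and 4.52 in GcKO (-0.83 ± 0.32, limma adjusted p = 0.559). Ssr3 was at 48.2, 48.6 and 47.1 FPKM in MUT and 33.9, 28.7 and 23.7 in GcKO (-0.73 ± 0.20, limma adjusted p = 0.274). For both, the MUT and GcKO libraries did not overlap, with MUT above.

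The EMC inserts segments of proteins such as multi-spanning receptors and channels. Of its 7 transcripts tested, Emc2 was called lower in both MUT and GcKO and Emc3 higher in MUT, as deposited. Among all tested transcripts, 11.3% and 11.4% were called lower in MUT and GcKO, and 9.46% and 8.71% higher. When scaled to the same FPKM sum, 0 of the 7 were called lower and 5 higher in both groups (Emc3, Emc6, Emc7, Emc8 and Emc10). Over all 11233 tested transcripts, 4643 were then called higher in MUT and 4767 in GcKO. After quantile normalization, 1 of the 7 was called lower and 2 higher in MUT and 0 in GcKO. Over all tested transcripts, 712 were then called lower and 772 higher in MUT, and 661 and 703 in GcKO. Emc2, on chromosome 15 from 43477229 to 43527763, encodes a subunit on the cytosolic side and was at 41.3, 52.1 and 39.9 FPKM in WT, at 16.1, 13.7 and 14.9 in MUT, at 18.3, 23.3 and 21.5 in GcKO and at 23.5, 47.5 and 18.3 in AmcKO. MUT lay below GcKO and GcKO below WT, with no overlap, and AmcKO spread over the range of both GcKO and WT. The log2 fold change was -1.51 ± 0.28 in MUT (limma adjusted p = 0.00193), which held in all 6 fits without 1 library, and -1.04 ± 0.28 in GcKO (limma adjusted p = 0.0168), lost without WT replicate 5 or GcKO replicate 1 (the highest limma adjusted p was 0.0806). With the same FPKM sum, the values were -0.55 and -0.04, neither called. Without AmcKO replicate 5, whose Emc2 level was within the WT range, Emc2 was called lower in AmcKO as well (limma adjusted p = 0.0413), the only such call in AmcKO, against -0.67 ± 0.28 with all libraries (limma adjusted p = 0.280).

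Emc3, on chromosome 6 from 113514874 to 113531652, encodes a core membrane subunit of the insertase. It was at 18.5, 12.5 and 8.05 FPKM in WT, at 23.8, 25.7 and 24.8 in MUT, at 16.7, 27.0 and 22.5 in GcKO and at 20.7, 25.1 and 18.2 in AmcKO. Only the MUT libraries lay apart from WT. Its log2 fold change was 0.95 ± 0.27 in MUT (limma adjusted p = 0.0221), 0.76 ± 0.27 in GcKO (limma adjusted p = 0.0582) and 0.73 ± 0.27 in AmcKO (limma adjusted p = 0.219). In MUT it was called under every scaling (1.88 with the same FPKM sum and 0.97 after quantile normalization), but only without WT replicate 4 among the 6 fits without 1 library (limma adjusted p up to 0.0822). Emc6 had a WT mean of 309 FPKM and as deposited was not called in MUT (-0.08 ± 0.15) or in GcKO (-0.39 ± 0.15, limma adjusted p = 0.0887). Its sign turned with the same FPKM sum, where it was called higher in both (0.91 and 0.64), and after quantile normalization, where it was called higher in MUT (0.70) and not in GcKO (0.42). Emc9 was listed at 0 in every library, Emc1 at most at 0.429 FPKM, and Emc10, at 0, 0 and 1.91 FPKM in WT and 1.21, 1.51 and 1.26 in GcKO, had the largest positive difference between GcKO and AmcKO (0.79 ± 0.41, limma adjusted p = 0.315).

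**Figure D4:**
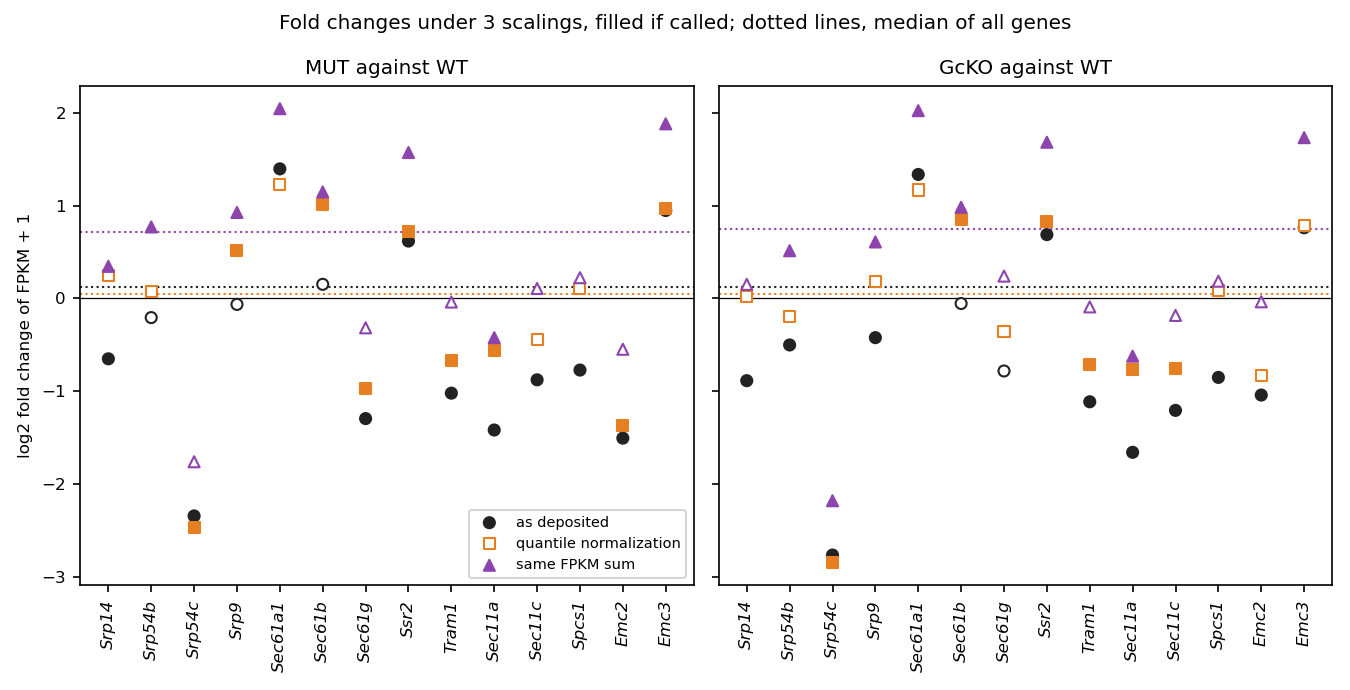
Log2 fold change of FPKM + 1 (y axis) of the 13 called transcripts and Sec61b in MUT and GcKO against WT, as deposited (circles), after quantile normalization (squares) and with the same FPKM sum in every library (triangles), filled where limma called them, with dotted lines at the median of all tested transcripts. The triangles lie above the circles throughout, their median being 0.71 in MUT and 0.74 in GcKO, and Srp14, Srp54b, Srp9 and Spcs1 change sign in both, Sec11c in MUT and Sec61g and Sec61b in GcKO, while Sec11a stays negative and called under all 3 in both groups.

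Across the 33 transcripts, the log2 fold change against WT was the lower the higher the transcript in AmcKO, a group outside the contrast, with a Spearman rho of -0.363 in MUT and -0.579 in GcKO, beside -0.25 and -0.259 over all tested transcripts. With transcript length, rho was 0.0324 in MUT and 0.192 in GcKO, beside 0.24 and 0.295 over all tested transcripts. These are descriptions across genes of the same libraries, without a test, and the part of abundance in the calls was not tested.

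Neighbouring steps of the same route were read from 5 other lists. Of 12 oligosaccharyltransferase transcripts, Dad1 and Ost4 were called lower and Magt1 and Rpn1 higher in MUT, and Dad1 lower and Stt3b higher in GcKO. These calls were 33.3% of the list in MUT and 16.7% in GcKO, beside 20.8% and 20.2% of all tested transcripts. Under the same FPKM sum, Ost4 in MUT was at 0.27 in place of -0.72. Dad1 encodes a small subunit of the complex and was at 1446, 1739.5 and 1835 FPKM in WT, at 694, 651 and 605 in MUT, at 528, 687 and 810.1 in GcKO and at 1179, 1651 and 1066 in AmcKO. Every MUT and GcKO library lay below every WT and AmcKO library. The log2 fold change of Dad1 was -1.36 ± 0.19 in MUT (limma adjusted p = 3.38e-04) and -1.32 ± 0.19 in GcKO (limma adjusted p = 4.13e-04), held in all 6 fits without 1 library. Under the same FPKM sum, the values were -0.36 in MUT, still called, and -0.29 in GcKO, not called. Between GcKO and AmcKO it was -0.94 ± 0.19 (limma adjusted p = 0.0117), lost without AmcKO replicate 4 or 5 or GcKO replicate 1 (the highest limma adjusted p was 0.0571). Ost4 was called in none of the 6 fits without 1 library, Magt1 in 2 and Rpn1 in 1, while Stt3b in GcKO was lost without GcKO replicate 1 (limma adjusted p = 0.0521).

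Btf3 and Naca, 2 of 3 in their list, form the nascent-chain complex that keeps SRP from chains without a signal. Both were called lower in MUT (-0.997 and -1.62) and in GcKO (-1.25 and -1.48), beside 11.3% and 11.4% of all tested transcripts. With the same FPKM sum neither was called, at -0.000388 and -0.76 in MUT and -0.21 and -0.56 in GcKO. After quantile normalization, Naca stayed called lower in MUT (-1.73) and GcKO (-1.59), and Btf3 was called in neither (-0.15 and -0.37). Btf3 was at 1022, 1021 and 1149.7 FPKM in WT, at 569, 551 and 479.7 in MUT, at 366, 432 and 561 in GcKO and at 625, 845 and 514 in AmcKO. Every library of MUT, GcKO and AmcKO lay below WT, and its calls held in all fits without 1 library, while those of Naca were lost in 3 of 6 in MUT (without WT replicate 6 or MUT replicate 2 or 3) and 4 of 6 in GcKO (without WT replicate 5 or 6 or GcKO replicate 2 or 3).

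Of 6 transcripts for the insertion of tail-anchored proteins, Sgta was called higher in MUT (1.41) and in GcKO (1.29), in both also with the same FPKM sum and after quantile normalization, though not in GcKO without GcKO replicate 1 (limma adjusted p = 0.0653). Ubl4 was called lower in GcKO (-1.08), but in none of the 6 fits without 1 library. Of all tested transcripts, 9.46% were called higher in MUT and 8.71% in GcKO, and 11.3% and 11.4% lower, as deposited. Among 6 of the multipass translocon, Ccdc47 was called lower in MUT (-1.17) and in GcKO (-1.12) and Tmco1 in GcKO (-0.64), in all fits without 1 library, while with the same FPKM sum none of these was called and Tmco1 was at 0.34. These calls held after quantile normalization, with Ccdc47 at -0.77 in MUT and -0.65 in GcKO and Tmco1 at -0.61 in GcKO. Of 5 chaperones on the ER side, Dnajc3 was called higher in MUT (1.08) and GcKO (0.77), the call in GcKO being lost without WT replicate 4 or 6 or GcKO replicate 1 or 3 (the highest limma adjusted p was 0.164). Hspa5, the main ER chaperone, was at 36.8 ± 8.29 FPKM (SD, n = 3) in WT, 37.5 ± 7.57 in MUT, 38.8 ± 2.28 in GcKO and 37.4 ± 2.57 in AmcKO and was not called. No transcript of these lists was called in AmcKO against WT by limma, where 6 of 32 (18.8%) had an unadjusted p under 0.05, beside 15.6% of all tested.

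Promoter windows of 300 bases, from 250 before to 50 after the transcript start, were taken from RefSeq on GRCm38.p6 and were found for 27 of the 36 genes, in 28 windows. They are shown for 2 subunits of signal peptidase called lower and for the beta and gamma subunits of the channel, whose ratio lay apart from WT in MUT and GcKO, with CCAAT or GGGCGG, on either strand, in capitals. The windows lie at chr7:80947501-80947800 (Sec11a, reverse strand), chr14:31001617-31001916 (Spcs1, reverse strand), chr4:47474411-47474710 (Sec61b, forward strand) and chr11:16508435-16508734 (Sec61g, reverse strand), and each is printed 5′ to 3′ on the strand of its gene.

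Sec11a: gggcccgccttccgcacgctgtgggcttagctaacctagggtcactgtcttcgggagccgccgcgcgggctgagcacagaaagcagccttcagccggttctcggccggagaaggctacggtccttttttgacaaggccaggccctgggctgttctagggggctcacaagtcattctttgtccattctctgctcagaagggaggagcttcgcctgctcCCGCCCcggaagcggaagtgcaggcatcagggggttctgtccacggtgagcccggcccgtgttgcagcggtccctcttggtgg
Spcs1: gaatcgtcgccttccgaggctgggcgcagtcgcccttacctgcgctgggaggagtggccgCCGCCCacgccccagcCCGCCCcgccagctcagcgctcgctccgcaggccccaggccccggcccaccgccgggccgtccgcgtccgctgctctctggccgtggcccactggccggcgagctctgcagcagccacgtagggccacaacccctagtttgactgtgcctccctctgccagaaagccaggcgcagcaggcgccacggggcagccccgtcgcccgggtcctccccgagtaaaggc
Sec61b: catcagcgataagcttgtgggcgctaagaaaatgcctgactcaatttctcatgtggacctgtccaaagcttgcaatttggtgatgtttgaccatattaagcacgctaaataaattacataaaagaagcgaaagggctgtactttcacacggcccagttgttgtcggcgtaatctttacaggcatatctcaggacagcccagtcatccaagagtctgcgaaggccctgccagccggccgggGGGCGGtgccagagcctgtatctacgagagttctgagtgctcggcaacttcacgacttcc
Sec61g: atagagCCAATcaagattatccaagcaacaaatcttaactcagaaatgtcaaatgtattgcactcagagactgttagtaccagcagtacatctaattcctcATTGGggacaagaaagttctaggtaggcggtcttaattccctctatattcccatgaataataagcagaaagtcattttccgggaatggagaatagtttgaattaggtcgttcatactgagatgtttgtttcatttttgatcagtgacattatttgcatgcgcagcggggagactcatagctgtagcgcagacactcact

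The ER stress response element (CCAAT, 9 bases of any kind, then CCACG) was in 0 of the 28 windows, and in 0.119% of all 32851 windows of the table, those of Hspa5 and Dnajc3 among them. The unfolded protein response element TGACGTGG was in 0 of the 28 and in 0.676% of all. CCAAT alone was in 39.3% of the 28 windows and in 37.4% of all, GGGCGG in 60.7% and 35.7%, and TATAAA in 0 and 13.6%, these last 3 motifs having been added after the windows were seen. All were searched on both strands and CCAAT overlaps the stress element. A match or its lack describes these letters in this window only.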

How the data were processed

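RNA from pools of 20 GV oocytes was amplified by Smart-seq2 and sequenced as paired reads of 150 nt. The authors mapped the reads to mm10 with TopHat2 2.0.13, estimated transcripts with Cufflinks 2.2.1 and scaled them with Cuffnorm, per the methods and the submitters' processing notes. The gene annotation they used is not given in the sources used here. The authors deposited FPKM values for 24255 genes in 12 libraries. The deposited columns of 6 group comparisons made by the authors, with fold changes and p-values, were not used. FPKM are not counts, so no count test was run, and the fragments behind a value are not known.

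Levels were log2 transformed with a pseudocount of 1. Genes that reached an FPKM of 1 in any library were kept (11233), a filter that removed Emc1, Emc9 and Sec61a2. A model of 4 group means with 8 residual degrees of freedom was fitted to all 12 libraries in limma 3.58.1 with a variance trend (R 4.3.3), and 5 contrasts were tested with Benjamini-Hochberg adjustment over all genes kept. An adjusted p under 0.05 was called. The code was tested on simulated data. Python 3.11.15, numpy 2.4.6, pandas 2.3.3, scipy 1.17.1 and matplotlib 3.10.9 were used for the rest. No pair of libraries held identical values.

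The genes and the other lists were chosen with earlier results of these data known. Described in depth were the genes called in MUT, GcKO or AmcKO against WT, the Sec61 subunits, the largest rise and fall of each contrast, Dpagt1, and genes called only in the other contrasts. Coordinates are those of GENCODE M21 on GRCm38, and promoter windows are from RefSeq on GRCm38.p6. The alternatives were 3 other scalings of the libraries, another pseudocount, other filters, no variance trend, a fit of only the 2 groups compared, a minimum fold change of 2, a replicate block and leaving out each library in turn.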

Additional observations from a re-analysis of the deposited data

How the results depend on the processing

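With the same FPKM sum in every library, 19 transcripts of the set were called in MUT and 17 in GcKO in place of 11 each. Between GcKO and AmcKO, 10 were called in place of 3. Of all 11233 tested transcripts, 251 were then called lower and 4643 higher in MUT, in place of 1269 and 1063. In GcKO they were 240 and 4767 in place of 1286 and 978, and between GcKO and AmcKO 128 and 2463 in place of 538 and 75. After quantile normalization, 6 of the set were called in GcKO, beside 661 lower and 703 higher of all tested transcripts. The sign turned for 15 of 33 transcripts in MUT, 15 in GcKO, 5 in AmcKO, 1 between GcKO and MUT and 14 between GcKO and AmcKO under the same FPKM sum, and for 9, 9, 4, 0 and 7 after quantile normalization. The same FPKM sum multiplies whole libraries and moves all transcripts together, so these turns follow from the scale and describe nothing particular to the set. Among those described in depth and called on at least 1 of the scales, the same FPKM sum gave in MUT Srp14 (0.35), Srp54b (0.77), Srp9 (0.93), Sec11c (0.11) and Spcs1 (0.22), and quantile normalization Srp14 (0.25), Srp9 (0.52) and Spcs1 (0.10). In GcKO they were Srp14 (0.15), Srp54b (0.51), Srp9 (0.61), Sec61b (0.98) and Spcs1 (0.19) under the same FPKM sum, and Srp14 (0.023), Srp9 (0.18), Sec61b (0.86) and Spcs1 (0.084) after quantile normalization, and between GcKO and AmcKO Srp54b (0.54) under the same FPKM sum. Turned but called on neither scale were Srp54b in MUT after quantile normalization (0.078), Sec61g (0.24) and Ssr1 (0.48) in GcKO under the same FPKM sum, Tram2 in GcKO after quantile normalization (-0.17), and, between GcKO and AmcKO under the same FPKM sum, Srp14 (0.15), Spcs1 (0.24), Srp9 (0.29), Emc2 (0.34), Sec61g (0.54) and Tram2 (0.19), with Srp14 (0.074), Spcs1 (0.17) and Sec61g (0.059) after quantile normalization. Emc10 also turned between GcKO and MUT under the same FPKM sum (from -0.020 to 0.0083) and was not called. In AmcKO, Sec11c (0.20 and 0.084) and Sec61b (0.19 and 0.20) turned on both scales, and neither was called. The cause of the turns after quantile normalization was not tested. Without the variance trend 7 were called in MUT, as with only the 2 groups compared, a fit with fewer samples, which called 0 between GcKO and AmcKO. A fold change over 2 left 6 in MUT and 6 in GcKO, and a mean FPKM of at least 5 gave 7 between GcKO and AmcKO. Leaving out 1 library gave 4 to 9 calls in MUT (4 without MUT replicate 2), 5 to 10 in GcKO (5 without GcKO replicate 1), 0 to 1 in AmcKO, 0 to 0 between GcKO and MUT and 2 to 5 between GcKO and AmcKO. Median-of-ratios scaling kept the side of the threshold for 84 of 85 values. Its factors lay between 0.9916 and 1.01, so it hardly changed the deposited values, and nothing is drawn from this count.

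No pairing of the libraries by the replicate numbers of the labels was seen. Same-numbered libraries deviated together with correlations of -0.0324 to 0.0249 in AmcKO and WT and -0.0413 to 0.0405 in GcKO and MUT. For libraries with different numbers, the correlations were -0.054 to 0.0384 and -0.057 to 0.0706. With 3 libraries per group, these values cannot decide whether same-numbered libraries shared a batch. With the replicate block, 0 were called in AmcKO against WT and 0 between GcKO and MUT, as without it. The other contrasts share no replicate numbers. The Srp54 copies were summed after the data were seen.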
